A study of Homo sapiens with 4 samples.

Results

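This account concerns 33 target genes of the transcription factor p53 other than CDKN1A, measured in human fibroblasts that had been exposed to a compound labelled Dox. The genes were taken by symbol from tables that list 58870 genes each. All 33 were found, each on a single row, and all 33 passed the filter on low counts. BJ cells, an established line of skin fibroblasts from human foreskin, had received either the solvent DMSO (2 libraries, titled YOUNG CONTROL and called control here) or Dox at 250 nM (2 libraries, titled AGEDDox and called Dox here). The series design puts 24 hours of exposure first and then 10 days in which the cells senesced, whereas the wording of the treatment protocol can be read as 10 days of incubation before the 24 hours. The 2 readings differ in how long after exposure the RNA was taken, and the labels do not settle which holds. Total RNA was sequenced, in a study of how centromeres lose activity with age. A single cell line stands for both groups, and the labels do not say whether replicates were separate cultures, so a p-value here reflects the spread among 4 libraries only, and that spread may be technical.

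p53 is a transcription factor that DNA damage stabilises. It binds DNA as a tetramer on a pair of short decamer motifs and raises genes that stop the cell cycle, repair DNA, adjust metabolism or start cell death, together with genes such as MDM2 that bring p53 itself back down. In fibroblasts the p53 response is one of the routes by which damaged cells enter lasting growth arrest. The members are described below by role, first feedback, then repair, growth arrest, metabolism, apoptosis and the death receptors.

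MDM2 had the highest mean level per kilobase of all members and is the classical feedback target. The stretch shown first is therefore the promoter of MDM2 whose annotated start lies inside the gene. It gives the 250 bases before that start (chr12:68808767-68809016, plus strand, RefSeq, GRCh38.p14), with the p53 motif match in capitals.
MDM2: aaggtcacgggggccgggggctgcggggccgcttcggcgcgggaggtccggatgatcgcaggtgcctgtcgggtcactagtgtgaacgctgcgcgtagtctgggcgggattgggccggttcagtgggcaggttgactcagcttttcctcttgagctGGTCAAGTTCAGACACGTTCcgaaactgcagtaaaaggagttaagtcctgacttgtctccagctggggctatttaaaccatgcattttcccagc

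RefSeq promoter windows of 300 bases, from 250 before to 50 after a start, were at hand for 24 of the members. Each was searched for 2 copies of the p53 decamer consensus with 0 or 1 base between them, at most 3 mismatches in the 20 positions, and the pattern NNNCNNGNNN kept in each decamer. The consensus reads the same on both strands, so a single search covers both, and it overlaps no other motif searched. A match was present for 7 of the 24 members (29.2%) and for 2.91% of the 27305 genes with such a window. The members were chosen as known p53 targets, some of them through these very sites, so the difference in share describes the choice of genes. The best match of each of these 7 members is given here, with the fixed C and G of each decamer in capitals.
AEN (chr15:88621306-88621325, plus strand, 2 mismatches): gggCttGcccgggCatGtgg
DDB2 (chr11:47214979-47214999, plus strand, 0 mismatches, 1 base between): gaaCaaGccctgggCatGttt
FAS (chr10:88991309-88991328, plus strand, 2 mismatches): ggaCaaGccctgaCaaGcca
FDXR (chr17:74872996-74873015, minus strand, 3 mismatches): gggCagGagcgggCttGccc
GDF15 (chr19:18386186-18386205, plus strand, 3 mismatches): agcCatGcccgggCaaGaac
MDM2 (chr12:68808923-68808942, plus strand, 2 mismatches): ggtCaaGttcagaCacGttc
SESN1 (chr6:109009018-109009037, minus strand, 3 mismatches): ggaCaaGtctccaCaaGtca
Of these 7 genes 6 were higher in Dox by the edgeR test given below, the exception being DDB2, the only one with no mismatch. Of the 17 members with a window and no match 10 were higher, and 16.5% of all genes tested were. The difference between members with and without a match was not tested. A match is a description of these letters, and its absence says only that they are not in this window.

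In the Dox libraries 23 of the 33 members were higher than in control, none was lower and 10 did not pass, by edgeR's quasi-likelihood test on expected counts with Benjamini-Hochberg adjustment over all 16749 genes tested and a threshold of 0.05. Over all genes tested, 16.5% were higher and 13.8% lower by the same test. The median log2 fold change of the members was 0.53, from -0.21 (SERTAD1) to 2.35 (TNFRSF10C), and that of all genes tested was -0.00. Both Dox libraries lay above both control libraries for 28 members and below them for 1, against 34.6% and 34.5% of all genes tested. At least 2-fold higher and past the threshold were 8 members, namely TNFRSF10C, CYFIP2, ACER2, TNFRSF10A, MDM2, GDF15, FDXR and BTG2, where the share over all genes tested was 6.23%. The members were chosen with earlier results of these data known, so these counts describe them and set them apart from no other list.

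The number of calls moved with the libraries in the fit. With either control library left out 14 members were higher, with Dox replicate 1 left out 28, and with Dox replicate 2 left out 27. On log2(TPM + 1) with limma 5 members passed, MDM2, ACER2, CYFIP2, TNFRSF10A and TNFRSF10C, and these 5 also passed in each of the other 9 alternatives. The calls over the whole table moved the same way. Of all genes tested, 8.62% and 7.83% were higher with control replicate 1 or 2 left out, 26% and 27% with Dox replicate 1 or 2 left out, and 3.56% by limma on log2(TPM + 1), against 16.5% with all libraries in edgeR.

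**Figure D1:**
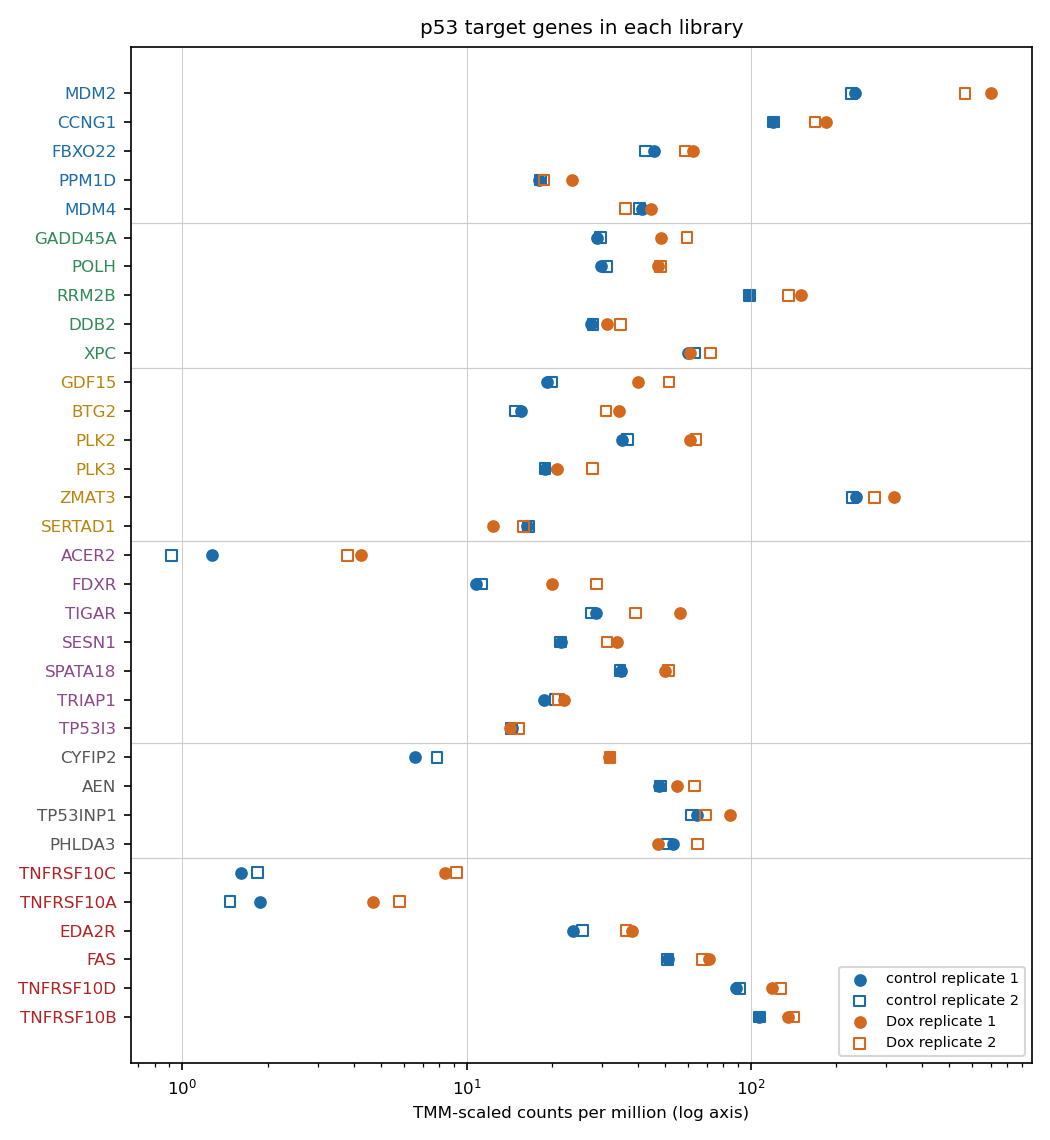
Level of each of the 33 p53 targets in TMM-scaled CPM (horizontal log axis) in each of the 4 libraries, ordered by role, with control in blue, Dox in orange, replicate 1 filled and replicate 2 open. MDM2 sits at 226 and 233 CPM in control and at 568 and 702 CPM in Dox, and TNFRSF10C moves from 1.61 and 1.83 to 8.42 and 9.22 CPM.

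The libraries held between 42744729 and 47798920 expected counts. Small non-coding RNAs took 18.5 to 25.5% of the counts and 83.3 to 88.5% of the TPM, so a gene's TPM moves with their share, and levels between libraries are given in TMM-scaled CPM, a read count scaled to library depth. Of the 10 fibroblast markers checked (among them COL1A1, COL1A2, COL3A1, DCN, LUM and VIM) all were present, 4 higher and 3 lower in Dox, and their summed level was 29650 to 30070 CPM in control and 22420 and 27500 CPM in Dox. The leukocyte list summed to 6.16 and 6.52 CPM in control and 26.5 and 28.7 CPM in Dox, with CD68 and PTPRC higher and CD3E at 0 in all 4 libraries, and its part in the results was not tested. Keratinocyte, melanocyte and endothelial lists had 0 genes past the threshold. The keratinocyte list summed to 245 and 247 CPM in control and 235 and 255 CPM in Dox. Most of this was DSP (234.7 and 236.5 against 222.7 and 243.9 CPM), and KRT5 and KRT1 were at 0. The melanocyte list, mostly MITF, summed to 29.04 and 30.25 CPM in control and 33.65 and 30.42 CPM in Dox. The endothelial list summed to 3.98 and 4.76 CPM in control and 3.60 and 4.03 CPM in Dox. In RNA from whole cultures, a change in the number of cells that express a gene and a change in RNA per cell cannot be told apart.

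CDKN1A, the p53 target that inhibits cyclin-dependent kinases and is no member of this set, stood at 467 and 466 CPM in control and at 848 and 991 CPM in Dox (log2 difference 0.98, SE 0.09). TP63 and TP73, transcription factors of the same family as p53, had 0 to 5 and 0 counts in the libraries and were not tested.

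Among the feedback genes, MDM2, CCNG1 and FBXO22 rose, while MDM4 and PPM1D did not pass. MDM2 (chromosome 12, 68808176 to 68850686 in GRCh38), the ubiquitin ligase that marks p53 for degradation, was at 233 and 226 CPM in control and at 702 and 568 CPM in Dox. Both Dox libraries lay well above both control libraries, and the fitted rise was 2.77-fold (log2 1.47, SE 0.11, edgeR adjusted p = 0.00045). Per kilobase, MDM2 had the highest mean level of all 33 members in both groups, 62.95 CPM per kilobase in control and 174 in Dox. CCNG1 was close to it in control, with a mean of 62.27 CPM per kilobase. In control replicate 2 CCNG1 was the higher of the pair, 62.26 against 62.03 CPM per kilobase.

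MDM4, the relative of MDM2 that binds p53 and blocks its activity, was at 41.6 and 40.7 CPM in control and 44.4 and 36.2 CPM in Dox. The Dox libraries lay on either side of the control libraries, and the log2 difference of -0.03 (SE 0.11) did not pass. MDM4 had a log2 difference of -0.20 without Dox replicate 1 and of 0.11 without Dox replicate 2, so its direction followed the library kept. The ratio of MDM2 to MDM4 in TPM was 5.86 and 5.45 in control and 17.4 and 16.5 in Dox. All 4 values of this ratio kept their groups apart, the difference of 11.3 between the group means being many times the spread within a group (SD 0.288 in control and 0.664 in Dox, n = 2 each, exact permutation test, two-sided p = 0.333, the smallest that 2 against 2 libraries allow).

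CCNG1, or cyclin G1, which recruits a phosphatase to MDM2, read 120.2 CPM in each control library and 184 and 168 CPM in Dox (log2 difference 0.55, SE 0.08). FBXO22, the substrate receptor of a ubiquitin ligase that acts on methylated p53, read 45.6 and 42.6 CPM in control and 62.5 and 58.8 CPM in Dox (log2 difference 0.46, SE 0.08). For both genes the groups did not overlap, and the rises were smaller than that of MDM2. PPM1D, the phosphatase WIP1 that switches off p53 and its activating kinases, was at 18.0 and 18.2 CPM in control and at 23.5 and 18.8 CPM in Dox. Its 2 Dox values differed more from each other than the lower of them did from control, and the log2 difference was 0.22 (SE 0.12, edgeR adjusted p = 0.215). PPM1D had a log2 difference of 0.38 without Dox replicate 2 and of 0.04 without Dox replicate 1. CCNG1 and FBXO22 lost their calls without control replicate 1 (edgeR adjusted p = 0.0642 and 0.0687) and without control replicate 2 (0.0685 and 0.159).

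**Figure D2:**
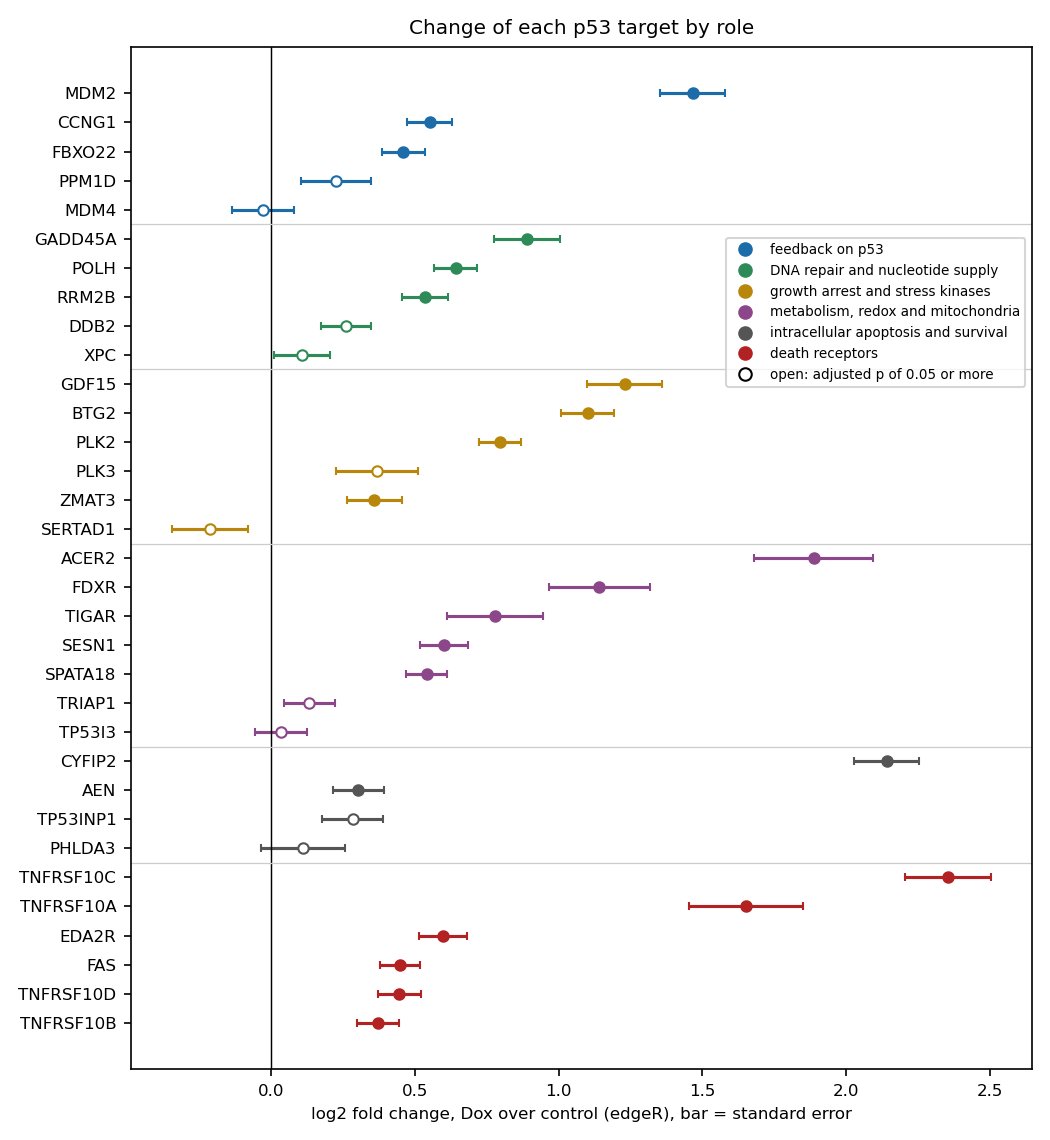
Fitted log2 fold change of Dox over control for each member (horizontal axis, edgeR, bars are standard errors), grouped and coloured by role, with open circles for members whose adjusted p was 0.05 or more. All 6 genes of the death receptor group are filled, and the rises run from 0.37 (TNFRSF10B) to 2.35 (TNFRSF10C) within that group. Of all genes tested 16.5% were higher.

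Of the 5 genes of DNA repair and nucleotide supply, GADD45A, POLH and RRM2B rose, and DDB2 and XPC did not pass. GADD45A, a small stress protein with roles in repair and in arrest before mitosis, was at 28.7 and 29.6 CPM in control and 48.2 and 59.7 CPM in Dox (log2 difference 0.89, SE 0.11, edgeR adjusted p = 0.00265). POLH, the translesion polymerase that copies past ultraviolet lesions, was at 29.8 and 31.2 CPM in control and 47.1 and 48.1 CPM in Dox (log2 difference 0.64, SE 0.07). RRM2B, the p53-induced subunit of ribonucleotide reductase that supplies nucleotides outside S phase, was at 98.5 and 99.2 CPM in control and 150.3 and 136.0 CPM in Dox (log2 difference 0.53, SE 0.08). In these 3 genes each Dox library exceeded each control library by more than the gap between replicates. RRM2B was no longer called when either control library was left out (edgeR adjusted p = 0.0761 and 0.0736).

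DDB2 and XPC recognise bulky lesions at the start of global nucleotide excision repair. DDB2 read 27.3 and 27.8 CPM in control and 31.3 and 34.8 CPM in Dox, groups that did not overlap, with a log2 difference of 0.26 (SE 0.09, edgeR adjusted p = 0.0663). It passed without Dox replicate 1 (log2 difference 0.32), without Dox replicate 2 (0.18) and with offsets for GC content (0.27). XPC read 60.2 and 63.6 CPM in control and 61.2 and 72.2 CPM in Dox, with overlapping groups and a log2 difference of 0.11 (SE 0.10), which was -0.02 with Dox replicate 2 left out. With Dox replicate 1 left out the log2 difference of XPC was 0.21.

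Of 27 partners of these 2 proteins in excision repair, all tested, 2 rose (7.41%), 1 fell (3.70%) and 24 did not pass, with a median log2 difference of -0.11, where 16.5% of all genes tested were higher and 13.8% lower. Both Dox libraries lay below both control libraries for 13 of the 27 and above them for 9, against 34.5% and 34.6% of all genes tested. These partners were also chosen with earlier results of these data known, so the counts describe them only. ERCC6, which couples repair to transcription, rose by 0.41 (SE 0.07), RAD23B, the stabilising partner of XPC, rose by 0.33 (SE 0.07), and RBX1, a subunit of the ligase that holds DDB2, fell by 0.30 (SE 0.08) on the log2 scale. None of these 3 passed without control replicate 1 or without control replicate 2, and without Dox replicate 1 or Dox replicate 2 the list held 7 and 4 rises and 11 and 10 falls, where 4634 of 17338 and 5017 of 17213 genes tested were lower. With GC offsets it held 4 rises and 8 falls, where 3744 of 16729 genes tested were lower.

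Among the 6 genes of growth arrest and stress signalling, GDF15, BTG2, PLK2 and ZMAT3 rose, while PLK3 and SERTAD1 did not pass. GDF15, a secreted stress hormone, was at 19.2 and 19.96 CPM in control and 40.2 and 51.6 CPM in Dox, a 2.34-fold rise (log2 1.23, SE 0.13, edgeR adjusted p = 0.00129). BTG2, an antiproliferative partner of the mRNA deadenylation complex, was at 15.6 and 14.9 CPM in control and 34.3 and 31.0 CPM in Dox (log2 difference 1.10, SE 0.09). Each Dox value of both genes lay far above both control values. PLK2, a stress-induced polo-like kinase, was at 35.4 and 36.9 CPM in control and 61.2 and 64.3 CPM in Dox (log2 difference 0.80, SE 0.07).

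Its relative PLK3 was at 18.9 CPM in each control library and at 20.8 and 27.8 CPM in Dox. The groups did not overlap, but the Dox values lay far apart, and the log2 difference of 0.37 (SE 0.14) did not pass (edgeR adjusted p = 0.1). PLK3 passed without Dox replicate 1 (log2 difference 0.55), with the replicate number as a block (0.35), with no filter on low counts (0.33) and with GC offsets (0.35). ZMAT3, an RNA-binding zinc finger protein that controls splicing and mRNA stability, was at 234 and 228 CPM in control and 320.2 and 272 CPM in Dox. Its rise of 0.36 (SE 0.10) on the log2 scale passed narrowly (edgeR adjusted p = 0.0349) and was lost when either control library was left out (0.244 and 0.314). SERTAD1, a cyclin D and CDK4 binding protein, was at 16.3 and 16.5 CPM in control and 12.4 and 15.9 CPM in Dox. It was the only member for which both Dox libraries lay below both control libraries, with a log2 difference of -0.21 (SE 0.13) that did not pass and that was called lower without Dox replicate 2 (-0.41).

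Of the 7 genes of metabolism, redox balance and mitochondria, 5 rose, where 16.5% of all genes tested did. These were ACER2, FDXR, TIGAR, SESN1 and SPATA18, while TRIAP1 and TP53I3 did not pass. ACER2, a Golgi ceramidase that makes sphingosine, had 53 and 43 counts in control and 182 and 173 in Dox, or 1.27 and 0.917 against 4.26 and 3.81 CPM. Although it had the lowest level of all members in control, its rise of 3.70-fold (log2 1.89, SE 0.21, edgeR adjusted p = 0.0015) was the third in size. FDXR, the mitochondrial ferredoxin reductase, was at 10.8 and 11.3 CPM in control and 19.97 and 28.7 CPM in Dox (log2 difference 1.14, SE 0.17).

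TIGAR, a phosphatase that lowers fructose-2,6-bisphosphate and so diverts glucose from glycolysis, was at 28.6 and 27.4 CPM in control and 56.6 and 39.3 CPM in Dox (log2 difference 0.78, SE 0.17, edgeR adjusted p = 0.0164). Its Dox libraries differed more from each other than those of any other member, with FDXR next in the opposite direction. SESN1, a sestrin that restrains the growth kinase complex mTORC1 under stress, was at 21.5 and 21.4 CPM in control and 33.9 and 31.2 CPM in Dox (log2 difference 0.60, SE 0.08). The related sestrin SESN2, which is not a member and also answers to other stresses, fell by 0.62 (SE 0.10) on the log2 scale, from 38.4 and 36.8 CPM to 22.8 and 26.2 CPM. The difference between the 2 sestrins was not tested.

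SPATA18, which encodes the mitochondrial quality control protein Mieap, was at 35.0 and 34.7 CPM in control and 49.9 and 51.4 CPM in Dox (log2 difference 0.54, SE 0.07). Its call was lost without control replicate 2 (edgeR adjusted p = 0.0589). TRIAP1, a small mitochondrial lipid transfer protein that restrains apoptosis, was at 18.8 and 20.5 CPM in control and 22.0 and 21.1 CPM in Dox (log2 difference 0.13, SE 0.09), and was called higher without Dox replicate 2 (0.16). TP53I3, a quinone oxidoreductase also known as PIG3, was at 14.5 and 14.4 CPM in control and 14.2 and 15.3 CPM in Dox. Its groups overlapped and its log2 difference of 0.03 (SE 0.09) was the nearest to 0 of the members apart from that of MDM4.

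Of the 4 intracellular genes of apoptosis and survival, CYFIP2 and AEN rose, and TP53INP1 and PHLDA3 did not pass. CYFIP2, a subunit of the actin-regulating WAVE complex, was at 6.57 and 7.87 CPM in control and 31.8 and 31.9 CPM in Dox. The Dox libraries were close to each other and far above control, a 4.41-fold rise (log2 2.14, SE 0.11, edgeR adjusted p = 0.00013). AEN, a nuclease that degrades nucleic acids in dying cells, was at 47.6 and 48.2 CPM in control and 54.9 and 63.3 CPM in Dox. Its rise of 0.30 (SE 0.09) on the log2 scale was the smallest that passed (edgeR adjusted p = 0.0451), and it was not called by DESeq2's Wald test (adjusted p = 0.0618), without control replicate 1 (0.355 by edgeR) or without control replicate 2 (0.32 by edgeR).

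TP53INP1, a nuclear and autophagy protein that helps p53 phosphorylation, was at 64.7 and 61.8 CPM in control and 84.6 and 69.5 CPM in Dox (log2 difference 0.28, SE 0.11, edgeR adjusted p = 0.091). It passed in 4 of the 10 alternatives, without Dox replicate 1 (log2 difference 0.12), without Dox replicate 2 (0.42), with GC offsets (0.23) and with the replicate block (0.28). PHLDA3, a membrane-binding inhibitor of the survival kinase AKT, was at 53.3 and 50.8 CPM in control and 47.3 and 65.0 CPM in Dox. One Dox library lay below and the other above control, and the log2 difference of 0.11 (SE 0.15) became 0.31 when Dox replicate 1 was left out and -0.14 when Dox replicate 2 was, each past the threshold in its own direction.

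All 6 genes grouped here as death receptors rose, where 16.5% of all genes tested did. FAS, the receptor of FAS ligand, was at 51.0 and 50.9 CPM in control and 71.1 and 67.8 CPM in Dox (log2 difference 0.45, SE 0.07, edgeR adjusted p = 0.00546). EDA2R, the receptor of ectodysplasin A2, was at 23.7 and 25.6 CPM in control and 38.4 and 36.4 CPM in Dox (log2 difference 0.60, SE 0.08). Neither gene's groups overlapped, and both lost their calls without control replicate 1 (edgeR adjusted p = 0.12 for FAS and 0.0609 for EDA2R), FAS also without control replicate 2 (0.132).

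The other 4 are the receptors of TRAIL, which lie in 1 cluster on chromosome 8. TNFRSF10A and TNFRSF10B carry a death domain and can start apoptosis. TNFRSF10C lacks an intracellular domain and TNFRSF10D has a shortened death domain, and both act as decoys. TNFRSF10B was at 107.0 and 107.5 CPM in control and 135 and 142 CPM in Dox (log2 difference 0.37, SE 0.07), and TNFRSF10D was at 89.1 and 91.7 CPM in control and 119 and 128 CPM in Dox (log2 difference 0.45, SE 0.08). These abundant receptors rose by similar, modest amounts, and neither was called once a control library was left out (edgeR adjusted p = 0.24 and 0.237 for TNFRSF10B, 0.163 and 0.127 for TNFRSF10D).

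The scarce receptors rose more. TNFRSF10C had 67 and 86 counts in control and 360 and 418 in Dox, or 1.61 and 1.83 CPM against 8.42 and 9.22 CPM, the largest rise among the members at 5.11-fold (log2 2.35, SE 0.15, edgeR adjusted p = 0.000233). TNFRSF10A had 78 and 69 counts in control and 200 and 263 in Dox, a 3.14-fold rise (log2 1.65, SE 0.20, edgeR adjusted p = 0.00205). Reads shared between these related genes could be divided between them by the estimation, so the values of the scarce ones carry that uncertainty. The differences in rise between the 4 genes were not tested.

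Set against each other per kilobase, TNFRSF10B and TNFRSF10D remained the main TRAIL receptors in both groups. TNFRSF10B made up 54.9 and 54.4% of the summed level of the 4 receptors in control and 49.9 and 49.0% in Dox. TNFRSF10A went from 1.39 and 1.08% in control to 2.495 and 2.89% in Dox. Of the decoys, TNFRSF10C went from 2.11 and 2.37% to 7.93 and 8.11%. The share of the abundant decoy TNFRSF10D went down, from 41.6 and 42.1% to 39.7 and 40%. The decoys together held 43.8 and 44.5% of the TRAIL receptor TPM in control and 48.1 and 47.6% in Dox. Both Dox values were above both control values, by 3.69 percentage points between the means (SD 0.496 in control and 0.355 in Dox, n = 2 each, exact permutation test, two-sided p = 0.333, the smallest this design allows).

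**Figure D3:**
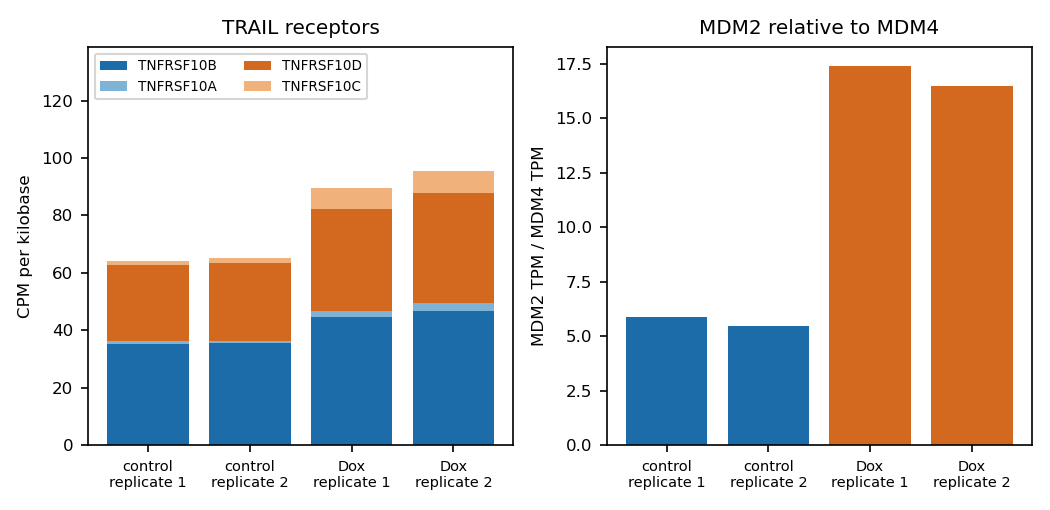
Left, the level per kilobase (CPM per kilobase, vertical axis from 0) of the 4 TRAIL receptors stacked for each library, death-domain receptors in blue and decoys in orange. Right, the ratio of MDM2 to MDM4 in TPM for each library, 5.86 and 5.45 in control (blue) and 17.4 and 16.5 in Dox (orange), with no error bars because each bar is 1 library.

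The ligands of these receptors were scarce. TNFSF10, which encodes TRAIL, had 2 and 0 counts in control and 7 and 8 in Dox, FASLG had 0 and 0 against 1 and 0, and EDA had 3 and 1 against 5 and 3, so none of the 3 was tested. Of the 16 tested genes among ligands, decoys and caspases, 5 rose (31.3%, against 16.5% of all genes tested), 2 fell (12.5%, against 13.8%) and 9 did not pass. Their median log2 difference was 0.01. The list was chosen with earlier results of these data known, so these counts describe it only. TNFRSF11B, the soluble decoy osteoprotegerin, rose by 1.34 (SE 0.07), from 169.1 and 168.7 CPM to 425 and 433 CPM.

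Downstream of the receptors that carry a death domain, FADD, the adaptor that binds it, had a log2 difference of -0.16 (SE 0.11). CASP8, an initiator caspase, had one of -0.03 (SE 0.11), and neither gene passed. CASP10, another initiator caspase, had 55 and 68 counts in control and 126 and 124 in Dox. It rose by 1.03 on the log2 scale (SE 0.175, edgeR adjusted p = 0.00721). CFLAR, the inhibitor of caspase-8 activation, rose by 0.65 (SE 0.07), from 90.7 and 90.8 CPM to 148 and 138 CPM. FAIM, an inhibitor of FAS-induced death, fell by 0.60 (SE 0.16) and was not called without control replicate 1 (edgeR adjusted p = 0.0884), without control replicate 2 (0.22) or by DESeq2's Wald test (adjusted p = 0.0677). FADD was called lower without Dox replicate 2 (log2 difference -0.30).

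Among 28 tested genes of the p53 family and its regulators, 6 rose (21.4%), 4 fell (14.3%) and 18 did not pass, with a median log2 difference of 0.02. These shares were near those of all genes tested, 16.5% higher and 13.8% lower, so the regulators named next are single genes and no result about the list. HIPK2, a kinase that phosphorylates p53 after severe damage, rose by 0.85 (SE 0.08), EP300, an acetyltransferase coactivator of p53, by 0.53 (SE 0.09) and ATM, the kinase of the double-strand break response, by 0.37 (SE 0.08). KAT5, an acetyltransferase, fell by 0.51 (SE 0.13), RPL5, a ribosomal protein that can inhibit MDM2, fell by 0.25 (SE 0.07) and COP1, a p53 ubiquitin ligase, fell by 0.29 (SE 0.08). With either control library left out 1 gene of this list rose and 0 fell, and EP300, ATM, KAT5, RPL5 and COP1 lost their calls in both. With either Dox library left out, rises and falls were more numerous in this list and over all genes tested.

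A further list of 58 genes reported as p53 targets, CDKN1A among them, had 55 tested genes. Of these 28 rose (50.9%, against 16.5% of all genes tested), 5 fell (9.09%, against 13.8%) and 22 did not pass. Their median log2 difference was 0.39. This list too was chosen with earlier results of these data known, so its counts describe it only. LIF, a cytokine, rose by 1.92 (SE 0.10) and FUCA1, a lysosomal fucosidase, by 1.65 (SE 0.09) on the log2 scale. VDR, the vitamin D receptor, fell by 0.56 (SE 0.08), THBS1, a matrix glycoprotein, fell by 0.43 (SE 0.07) and SESN2 was the third of the falls with the smallest adjusted p. Several genes of the list, THBS1 among them, also respond to other signals such as TGF-beta, whose part in these values was not tested. Leaving out a control library gave 21 and 18 rises in this list and 3 falls each, and leaving out a Dox library gave 37 and 36 rises and 5 and 9 falls, while the share of all genes tested that rose was 8.62% and 7.83%, then 26% and 27%.

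The 4 members with the lowest control level per kilobase, ACER2, TNFRSF10A, TNFRSF10C and CYFIP2, were also the 4 with the largest rises. Their control means ran from 1.09 to 7.22 CPM, and of all 3663 genes tested with a control mean in that range 5.65% were called and at least 2-fold higher in Dox. Over the 33 members the control level per kilobase and the log2 fold change had a Spearman rho of -0.342. This is a description only, since both quantities use the same control libraries. MDM2 combined the highest mean control level per kilobase, just above that of CCNG1, with the fifth largest rise.

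The gap between the 2 Dox libraries went with the base composition of the members, though not for each of them. Spearman's rho between the mean GC content of a gene's transcripts and its log2 ratio of Dox replicate 1 to Dox replicate 2 was -0.753 over the 33 members and -0.578 over 16692 tested genes, all points sharing the same 2 libraries. GC-rich members such as FDXR (63.4% GC, log2 ratio -0.52), PHLDA3 (61.7%, -0.46) and PLK3 (58.8%, -0.42) were higher in Dox replicate 2. All 7 members above 56% GC were higher in Dox replicate 2. Of the 26 at or below 56%, 15 were higher in Dox replicate 1, such as MDM2 (40.7%, 0.30) and TIGAR (47.6%, 0.53), and the other 11 were not, such as PLK2 (43.0%), TNFRSF10D (47.1%) and SERTAD1 (53.9%). For the Dox over control fold change of the same members rho was -0.0201, and no member's Dox libraries were more than 1.5-fold apart, against 10.1% of all genes tested. With offsets that remove each library's GC trend, 26 members were higher and 0 lower, DDB2, PLK3 and TP53INP1 joining the 23, while the share of all genes tested that were higher went from 16.5% to 22.8%.

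**Figure D4:**
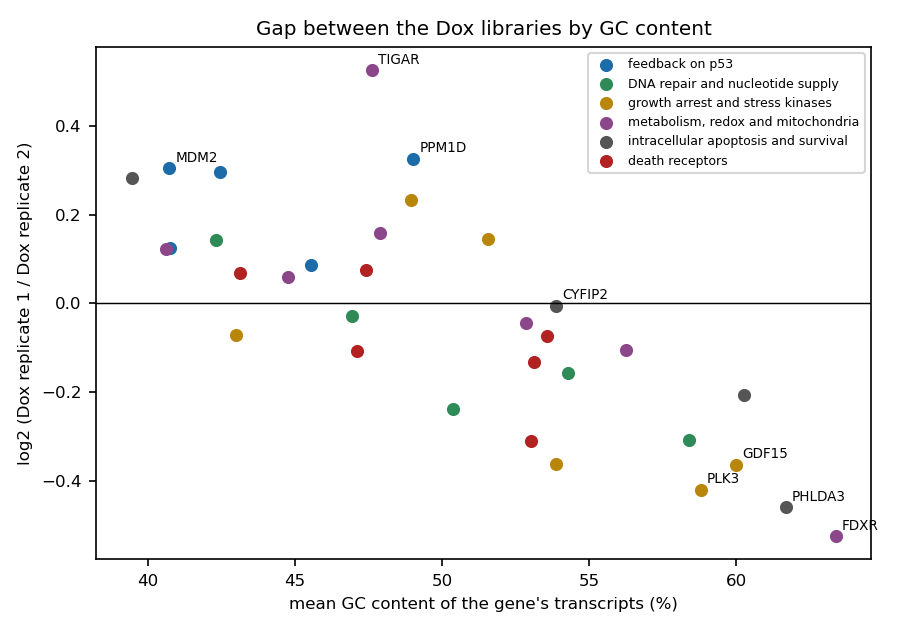
Each point is 1 of the 33 members, placed by the mean GC content of its transcripts in percent (horizontal) and by the log2 ratio of its CPM in Dox replicate 1 over Dox replicate 2 (vertical), coloured by role. Points fall from upper left to lower right, from MDM2 at 0.30 to FDXR at -0.52.

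The tables also give, for each gene, the mean length of its transcripts weighted by their estimated shares, which changes when a gene's mixture of transcripts changes. It could be compared for 30 members, the other 3 (SERTAD1, ACER2 and TNFRSF10D) having a single listed transcript. With limma on log2 length, 0 of the 30 passed an adjusted threshold of 0.05, as did 0 of all 12825 genes compared (0%), and at an unadjusted p under 0.05 there were 5 members and 1194 genes. The largest of these 5 differences was in CYFIP2, 3429 and 3575 bases in control and 4066 and 3803 bases in Dox (log2 difference 0.17, SE 0.05, limma adjusted p = 0.515). CCNG1 had 2057 and 2064 bases in control and 2152 and 2219 in Dox, and DDB2 had 1352 and 1326 in control and 1236 and 1267 in Dox. PLK2 had 2055 and 2065 bases against 1943 and 1984, and PPM1D 4317 and 4190 against 3940 and 4030. None of the differences in these 5 genes holds up against the adjustment over all genes. MDM2, with 34 listed transcripts, had 3806 and 4146 bases in control and 3855 and 3556 in Dox, groups that overlapped.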

How the data were processed

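Per the submitters' processing notes, cutadapt, STAR, Picard and RSEM were used with the build hg38, the sources used here giving neither versions nor the annotation release. The deposited expected counts are estimated reads per gene per the file headers. The deposited TPM values are scaled by effective length and to a fixed total, and the deposited FPKM values were not used. The deposited lengths are transcript means weighted by estimated isoform share.

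Expected counts were rounded. Genes were kept by filterByExpr (minimum count 10, minimum total 15), scaled by TMM and tested with edgeR 4.0.16, group as the only term. A standard error is the log2 fold change divided by the square root of F. CPM per kilobase uses the mean effective length over the libraries. By Ensembl identifier 99.5% of genes matched GENCODE 29, which gave coordinates and transcript GC. limma 3.58.1, DESeq2 1.42.0, R 4.3.3 and Python 3.11.15 were used, and the tests were checked on simulated data. Alternatives were DESeq2 size factors, no filter, DESeq2's Wald test, limma on log2(TPM + 1), the replicate block, GC offsets and leaving out each library.

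The members and lists were chosen with earlier results of these data known. The text names all members, CDKN1A, TNFSF10, FADD, CASP8 and CFLAR, and of each list the 3 genes with the smallest adjusted p in each direction, except for some genes under this rule that are not reported here. TP63, TP73, FASLG, EDA, CASP10 and the cell type markers were named besides, all but the markers after their values were seen. KILLIN, listed as a target, was not found by that symbol.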

Additional observations from a re-analysis of the deposited data

How the results depend on the processing

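Of the 10 alternatives, DESeq2 size factors changed no call among the 33 members. Members higher numbered 14 and 28 at the extremes when each library was left out, and 5 by limma on log2(TPM + 1), where members lower stayed at 0 and ranged from 0 to 2 with a library left out. With the replicate number as a block, 25 members were higher and 0 lower. The labels do not say that equal numbers share a culture or day, and the deviations of same-numbered libraries correlated at 0.0488. By limma on log2(TPM + 1), 0 regulators rose and 0 fell, and 9 other targets rose and 0 fell. In the same fit 2 ligand and caspase genes rose and 0 fell, and 0 excision repair genes rose and 0 fell. Of all 16749 genes tested 596 rose and 198 fell by limma. DESeq2's Wald test gave 2 falls among regulators, 1 among ligand and caspase genes and 0 among excision repair genes. Over all 17208 genes in that test 2051 rose and 1851 fell. Excision repair falls numbered 4 with no filter, 3 with the replicate block and 8 with GC offsets, and its rises 4 with GC offsets. Over all genes tested, falls in the same order numbered 3058 of 31057, 2511 of 16749 and 3744 of 16729. With GC offsets 22.8% of all genes tested rose. Leaving out each library gave 1 to 11 rises and 0 to 7 falls of regulators, 18 to 37 and 3 to 9 of other targets, 4 to 6 and 1 to 6 of ligand and caspase genes, and 0 to 7 and 0 to 11 of excision repair genes. Fits with a control library left out rest on the spread of the Dox pair alone, and those without a Dox library on that of the control pair, with the lone library assumed to vary alike. MDM2 over MDM4 differed by 10.6 in CPM per kilobase, with a range of 10.8 to 11.8 in TPM with each library left out, and the decoy share by 3.34 to 4.04 percentage points. Log2 differences changed sign by limma on log2(TPM + 1) for MDM4 (0.10), FADD (0.00) and CASP8 (0.18), and with each library left out for MDM4 (-0.20 to 0.11), XPC (-0.02 to 0.21), TP53I3 (-0.02 to 0.07), PHLDA3 (-0.14 to 0.31) and CASP8 (-0.10 to 0.03), none of which had passed with all 4 libraries. The cause of these changes was not tested. Members at about 1 CPM in control, such as ACER2 with 53 and 43 counts, are limited by counting error.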
